A study of Mus musculus with 2 samples.

Results

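Fatty acid oxidation genes were compared between the bulge and the hairshaft, 2 parts of the hair follicle in mouse skin. The set held 32 genes, taken as every probe set whose platform gene symbol was on the list, and 30 of them, with 53 probe sets, were measured among 18194 genes and 45101 probe sets in all. Ucp2 was not analysed here, and Cpt1b was covered only by a probe set that the annotation shares among 3 symbols. Both structures were cut by laser from frozen, eosin-stained skin of C57Bl6 mice aged 21 days, and 30 ng of total RNA from each was amplified and hybridised to 1 array. The bulge, a region of the outer root sheath, holds the stem cells of the follicle, and the label hairshaft names the hair fibre. The labels do not say how the regions were recognised or how many animals were used. Values are on the log2 scale of GCRMA, a difference is the bulge value less the hairshaft value, and 1 array for each structure leaves no replicate spread and no test. All folds and counts therefore describe these 2 arrays, and their number limits the precision.

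Fatty acid oxidation shortens fatty acids inside mitochondria to acetyl-CoA. Long acyl chains enter through the carnitine shuttle, pass repeatedly through a spiral of dehydrogenation, hydration, a second dehydrogenation and thiolytic cleavage, and hand their electrons to the respiratory chain through the electron transfer flavoprotein. The pathway runs at high capacity in skeletal muscle, heart and brown fat, while peroxisomes shorten very long and branched chains, and pyruvate dehydrogenase kinases hold back glucose oxidation when fat is burned.

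The arrays did not follow their labels in all respects. Of 8 bulge stem cell markers, 6 were bulge-high (at least 2-fold above the hairshaft array), led by Lhx2, Sox9 and Fgf18. Of 9 hair shaft markers, 7 were also bulge-high and none was hairshaft-high (at least 2-fold above the bulge array); on the hairshaft array 5 of the 9 were above the background floor and the highest read 3.57. The floor, 2.68 on each array, was the 95th percentile of 80 probe sets for odorant and pheromone receptors, genes of sensory neurons. Of all genes above the floor, 11.4% were bulge-high and 4.91% hairshaft-high. The 6 differentiated epidermis markers read 9.88 to 15.33 on the bulge array and 11.43 to 15.36 on the hairshaft array. Skeletal muscle and fat cell markers were among the largest differences of all, and their values are given beside the results below.

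Promoter sequences are shown first for the members on which the results turn: the 3 with the largest differences that had an entry (Pdk4, Fabp3 and Pdk2), the neighbouring thioesterase genes Acot1 and Acot2, which read differently, Hadha, whose promoter lies back to back with that of Hadhb, and Cpt1a, which read evenly. Each sequence runs from 250 bases before to 50 bases after the RefSeq gene start (GRCm38.p6), 5′ to 3′ on the gene's strand. Capitals mark matches on either strand to the hexamer AGGTCA, which nuclear receptors such as PPARs bind. They also mark GC boxes, spelled GGGCGG, and the CCAAT box, which is named by its letters.
Pdk4, chr6:5496229-5496528, minus strand: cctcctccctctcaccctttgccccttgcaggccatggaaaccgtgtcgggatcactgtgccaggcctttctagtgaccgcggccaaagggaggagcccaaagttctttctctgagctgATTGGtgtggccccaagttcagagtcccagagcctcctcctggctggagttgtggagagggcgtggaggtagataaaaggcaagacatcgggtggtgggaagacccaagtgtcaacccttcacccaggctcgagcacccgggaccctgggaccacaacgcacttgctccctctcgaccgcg
Fabp3, chr4:130308488-130308787, plus strand: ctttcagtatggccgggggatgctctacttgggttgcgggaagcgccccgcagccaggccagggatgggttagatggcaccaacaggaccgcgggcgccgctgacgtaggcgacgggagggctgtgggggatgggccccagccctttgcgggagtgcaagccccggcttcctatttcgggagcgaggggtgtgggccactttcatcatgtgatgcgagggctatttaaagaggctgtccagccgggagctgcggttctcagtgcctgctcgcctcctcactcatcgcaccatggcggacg
Pdk2, chr11:95041322-95041621, minus strand: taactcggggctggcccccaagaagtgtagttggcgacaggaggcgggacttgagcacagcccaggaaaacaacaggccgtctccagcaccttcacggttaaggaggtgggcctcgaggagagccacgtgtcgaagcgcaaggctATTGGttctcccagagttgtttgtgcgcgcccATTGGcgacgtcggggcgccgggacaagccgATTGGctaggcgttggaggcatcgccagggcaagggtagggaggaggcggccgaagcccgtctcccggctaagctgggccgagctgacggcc
Acot1, chr12:84009252-84009551, plus strand: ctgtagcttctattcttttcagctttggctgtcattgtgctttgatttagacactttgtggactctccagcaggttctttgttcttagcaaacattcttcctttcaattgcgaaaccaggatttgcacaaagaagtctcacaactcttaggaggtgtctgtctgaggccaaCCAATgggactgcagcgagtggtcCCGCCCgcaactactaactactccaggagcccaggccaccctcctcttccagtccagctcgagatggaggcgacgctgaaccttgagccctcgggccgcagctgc
Acot2, chr12:83987611-83987910, plus strand: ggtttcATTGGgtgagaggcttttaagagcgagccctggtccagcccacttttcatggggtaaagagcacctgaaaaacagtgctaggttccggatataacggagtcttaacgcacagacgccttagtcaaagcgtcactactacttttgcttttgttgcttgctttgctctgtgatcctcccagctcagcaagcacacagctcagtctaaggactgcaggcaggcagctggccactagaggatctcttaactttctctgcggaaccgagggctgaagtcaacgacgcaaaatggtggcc
Hadha, chr5:30154931-30155230, minus strand: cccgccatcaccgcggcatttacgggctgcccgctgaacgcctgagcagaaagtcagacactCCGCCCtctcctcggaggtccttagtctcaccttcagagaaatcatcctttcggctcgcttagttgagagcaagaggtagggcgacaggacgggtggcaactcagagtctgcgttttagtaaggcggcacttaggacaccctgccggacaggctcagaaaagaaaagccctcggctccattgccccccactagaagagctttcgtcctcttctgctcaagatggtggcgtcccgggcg
Cpt1a, chr19:3323051-3323350, plus strand: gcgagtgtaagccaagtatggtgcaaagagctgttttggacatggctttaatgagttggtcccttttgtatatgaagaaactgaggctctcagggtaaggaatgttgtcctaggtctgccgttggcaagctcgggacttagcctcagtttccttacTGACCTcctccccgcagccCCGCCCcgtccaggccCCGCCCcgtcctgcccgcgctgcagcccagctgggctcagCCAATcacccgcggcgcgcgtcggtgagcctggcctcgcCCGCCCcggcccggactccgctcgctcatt

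RefSeq windows were found for 28 of the 32 listed members, all but Cpt1b, Decr1, Crat and Acaa2. Each member gave 1 window, the first listed for it, while the full set of windows beside them was not reduced to 1 per gene. AGGTCA lay in 5 of these 28 windows (17.9%), those of Cpt1a, Acadvl, Acadm, Echs1 and Ucp3, against 16.3% of 32841 windows of the same length. Among these 5 genes, Ucp3 had a difference of 1.52 and the other 4 were under 2-fold apart. The repeat AGGTCANAGGTCA, in which PPAR and RXR bind side by side and which contains the hexamer, lay in 0 of 28 windows, and its looser form AGGNCANAGGNCA in 0 as well, against 0.0396% and 0.381% of all windows. The extended hexamer TNAAGGTCA of oestrogen-related receptors (1.28% of all windows) and the MEF2-like CTANNNNTAG (3.69%) were also in 0 of 28. GC boxes lay in 19 of 28 windows (67.9%, against 35.7% of all) and CCAAT boxes in 13 of 28 (46.4%, against 37.4%). The GC content of the members' windows ran from 50.7% to 74.7% with a median of 61.0%, and the median over all windows was 52.7%. In Pdk2 there were 3 CCAAT boxes and no GC box, in Pdk4 1 CCAAT box, and in Fabp3 none of the 3 motifs marked in capitals. A match describes these letters in this window and not a bound site.

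Most of the fatty acid oxidation genes were higher in the bulge array, and by the brightest probe set of each gene the 4 largest differences were in Pdk4, Fabp3, Pdk2 and Crat. With the mean of probe sets, Pdk4 and Pdk2 still led, but the spiral enzyme Decr1, at 3.25, lay above Fabp3 at 2.74 and Crat at 1.54, and 3 members in place of 4 passed the 8-fold limit. Of 30 measured members, 13 (43.3%) were bulge-high, where 11.4% of the 13329 genes above the floor were. None was hairshaft-high, against 4.91% of all genes. The 8-fold limit was passed toward the bulge by Pdk4, Fabp3, Pdk2 and Crat, 4 of 30 where the share among all genes was 3.02%, and toward the hairshaft by none (0.188% of all genes). By any amount, 27 of 30 were higher in the bulge (44.9% of all genes) and 3 in the hairshaft (46.6%), namely Ppard, Cpt1a and Acot2. The median difference of the members was 0.90 and that of all genes 0.00. All 30 members were above the floor on both arrays.

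**Figure D1:**
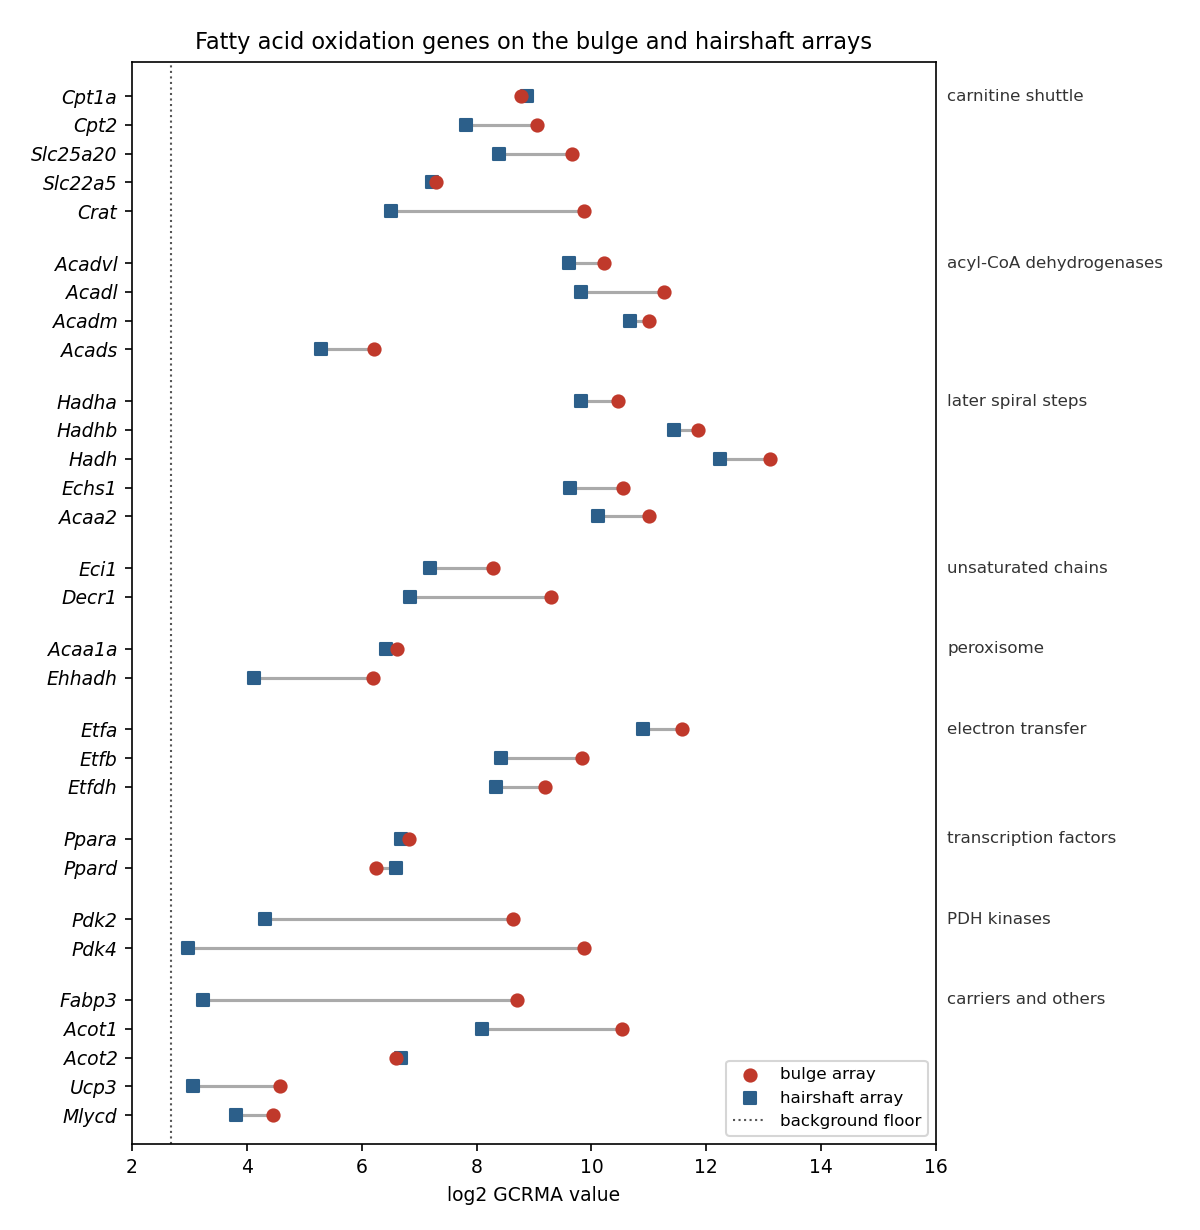
Log2 GCRMA values of the 30 measured members (one row per gene, grouped by role) on the bulge array (red circles) and the hairshaft array (blue squares); the dotted line is the background floor at 2.68. Pdk4, Fabp3 and Pdk2 have the longest bars, while Cpt1a, Slc22a5 and Acot2 have nearly coinciding points.

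In the carnitine shuttle, the entry enzyme Cpt1a was even and the inner steps were higher in the bulge. Cpt1b, the entry enzyme of muscle, had only a shared probe set, given in the next paragraph. Cpt1a, the outer-membrane transferase whose inhibition by malonyl-CoA controls entry, had 8.77 on the bulge array against 8.87 on the hairshaft array, and its 3 probe sets differed by -0.18 to -0.01. The translocase Slc25a20, which carries acylcarnitine across the inner membrane, read 9.66 on the bulge array against 8.39 on the hairshaft array, 2.42-fold higher, and its second probe set gave a difference of 1.88. Cpt2, the inner-membrane transferase that remakes acyl-CoA, had 9.04 on the bulge array against 7.81 on the hairshaft array, 2.35-fold higher. Its other probe set read 3.06 on both arrays, so that with the mean of its probe sets the difference was 0.62 in place of 1.24, under 2-fold. Slc22a5, the carnitine transporter of the cell surface, was close on both arrays, at 7.29 on the bulge array against 7.22 on the hairshaft array.

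Carnitine acetyltransferase (Crat), which moves acetyl groups between CoA and carnitine and so buffers acetyl-CoA, differed most in this group. It had 9.86 on the bulge array against 6.51 on the hairshaft array, 10.2-fold higher. Its other probe sets were dimmer and gave differences of 0.96 and 0.29, and the mean of all 3 gave 1.54 in place of 3.36. The probe set shared by Cpt1b (the transferase of muscle mitochondria), Chkb and Gm44502 had 7.53 on the bulge array against 2.23 on the hairshaft array, the lowest value on the array. It was at least 29.0-fold higher in the bulge, but it cannot be given to 1 gene and was not counted.

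The 14 enzymes of the mitochondrial spiral and of electron transfer were all higher in the bulge, most of them by under 2-fold. Their differences ran from 0.33 to 2.46, with a median of 0.88. Of the 14, 4 (Acadl, Eci1, Decr1 and Etfb) were bulge-high, 28.6% against 11.4% of all genes above the floor. The direction of these 14 was the same with the loess trend removed and with quantile normalization; with the mean of probe sets Hadhb alone turned, to -0.07.

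Among the acyl-CoA dehydrogenases, which take the first electrons from chains of decreasing length, the difference did not follow chain length. Acadvl, for very long chains, had 10.22 on the bulge array against 9.61 on the hairshaft array (1.53-fold). Acadl, for long chains, had 11.27 on the bulge array against 9.82 on the hairshaft array (2.73-fold), and its second probe set was at the lowest value of both arrays, so that the mean of both gave 0.72 in place of 1.45. Medium-chain Acadm was nearly even, with 11.00 on the bulge array against 10.67 on the hairshaft array (1.26-fold). Acads, for short chains, had 6.22 on the bulge array against 5.30 on the hairshaft array (1.89-fold).

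The later steps of the spiral lay under the 2-fold limit. Hadha and Hadhb, the subunits of the trifunctional protein that handles long chains, are transcribed away from each other, and their promoter windows shared 228 of 300 bases. Hadha had 10.46 on the bulge array against 9.82 on the hairshaft array, a difference of 0.64. Hadhb had 11.85 on the bulge array against 11.44 on the hairshaft array, a difference of 0.42, while its 2 other probe sets gave 0.35 and -0.97.

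For shorter chains, the hydratase Echs1 had 10.55 on the bulge array against 9.62 on the hairshaft array (1.90-fold). Hadh, the hydroxyacyl-CoA dehydrogenase, had 13.11 on the bulge array against 12.23 on the hairshaft array (1.84-fold). The thiolase Acaa2, which releases acetyl-CoA, had 11.00 on the bulge array against 10.12 on the hairshaft array (1.83-fold). These 3 genes had similar differences and crossed the 2-fold limit with the loess trend removed, at 1.07, 1.04 and 1.02. Hadh also crossed it with plain probe sets only (those without _a_at, _s_at or _x_at endings), at 1.22.

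Enzymes that prepare unsaturated chains for the spiral were higher in the bulge. Decr1, the dienoyl-CoA reductase, had 9.30 on the bulge array against 6.84 on the hairshaft array (5.50-fold), the largest difference among the 14 enzymes. Its second probe set had 7.19 on the bulge array against 3.16 on the hairshaft array, a difference of 4.03, and the mean of both gave 3.25. Eci1, the enoyl-CoA isomerase, had 8.29 on the bulge array against 7.18 on the hairshaft array (2.15-fold).

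Electron transfer genes were higher in the bulge as well. Etfb, a subunit of the electron transfer flavoprotein, had 9.83 on the bulge array against 8.42 on the hairshaft array (2.66-fold). The other subunit, Etfa, had 11.59 on the bulge array against 10.90 on the hairshaft array (1.61-fold). Etfdh, which passes the electrons to ubiquinone, had 9.20 on the bulge array against 8.34 on the hairshaft array (1.81-fold).

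The pyruvate dehydrogenase kinases showed the largest difference of the set. Pdk4, a kinase induced by fasting and fatty acids that shuts off pyruvate dehydrogenase, had 9.88 on the bulge array against 2.97 on the hairshaft array, 120-fold higher. The hairshaft value was close to the floor, and with the floor raised to the 99th percentile of those receptors the difference was 5.67 in place of 6.91, or 5.33 after 16 linear units were added to every signal (the offset). Pdk2, the most widely expressed kinase of the family, had 8.63 on the bulge array against 4.32 on the hairshaft array, 19.8-fold higher (a difference of 4.31, or 3.52 with the offset). Pdk1 and Pdk3, outside the set, had differences of 0.40 and -0.50, and the opposing phosphatase Pdp1 had 0.79.

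Carriers and thioesterases were divided. Fabp3, the fatty acid binding protein of heart and skeletal muscle, had 8.71 on the bulge array against 3.24 on the hairshaft array, 44.4-fold higher. Its second probe set read 3.39 on both arrays, and the difference of 5.47 was 2.74 with the mean of both, 4.50 with the 99th percentile floor and 4.09 with the offset. Acot1, a cytosolic acyl-CoA thioesterase, had 10.53 on the bulge array against 8.09 on the hairshaft array (5.44-fold). Its neighbour on chromosome 12, the mitochondrial Acot2, had 6.60 on the bulge array against 6.68 on the hairshaft array.

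The coding sequences of Acot1 and Acot2 are similar, so cross-hybridisation is possible, and a probe set annotated to both had 9.72 on the bulge array against 7.50 on the hairshaft array, a difference of 2.22. Their promoter windows, printed above, were far less alike. Aligned end to end they were identical at 178 of 354 columns (50.3%), and the longest run of bases in common was 9.

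Members with low signal differed little or depended on the floor. Ucp3, the uncoupling protein of skeletal muscle mitochondria, had 4.58 on the bulge array against 3.06 on the hairshaft array (2.87-fold), a difference of 1.52 that became 0.37 with the 99th percentile floor and 0.72 with the offset. Its second probe set gave 0.67. Mlycd, which removes malonyl-CoA and so releases Cpt1a and Cpt1b from inhibition, had 4.46 on the bulge array against 3.81 on the hairshaft array (1.57-fold).

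The peroxisomal members split. Ehhadh, the bifunctional enzyme of peroxisomal oxidation, had 6.20 on the bulge array against 4.12 on the hairshaft array (4.21-fold), a difference of 2.07, or 1.42 with the offset. Acaa1a, the peroxisomal thiolase, had 6.62 on the bulge array against 6.42 on the hairshaft array. A pair of brighter probe sets, which the annotation shares between Acaa1a and Acaa1b, gave differences of 0.97 and 0.93.

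The nuclear receptors that switch on much of this pathway were close on the arrays by their brightest probe sets. Ppard had 6.25 on the bulge array against 6.61 on the hairshaft array, the largest hairshaft excess of any member (1.28-fold). Ppara had 6.83 on the bulge array against 6.69 on the hairshaft array by its brightest probe set, while the others gave -0.13 and -1.75, so that with the mean of its probe sets the difference was -0.58 in place of 0.14. The probe set that gave -1.75, with 5.20 on the bulge array against 6.94 on the hairshaft array, was the only hairshaft-high one of the members' probe sets.

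Over single probe sets, 50 of the members' 53 were above the floor. Of these 50, 16 were bulge-high (9.87% of 24173 named probe sets above the floor) and 1 was hairshaft-high (6.75%). Where a member had several probe sets above the floor (14 members), their signs were alike in 8, of which 7 were higher in the bulge, and Cpt1a was the other. Among these 14, a flat probe set stood beside a steep one in Cpt2 and Fabp3, where the flat one read 3.06 and 3.39.

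**Figure D2:**
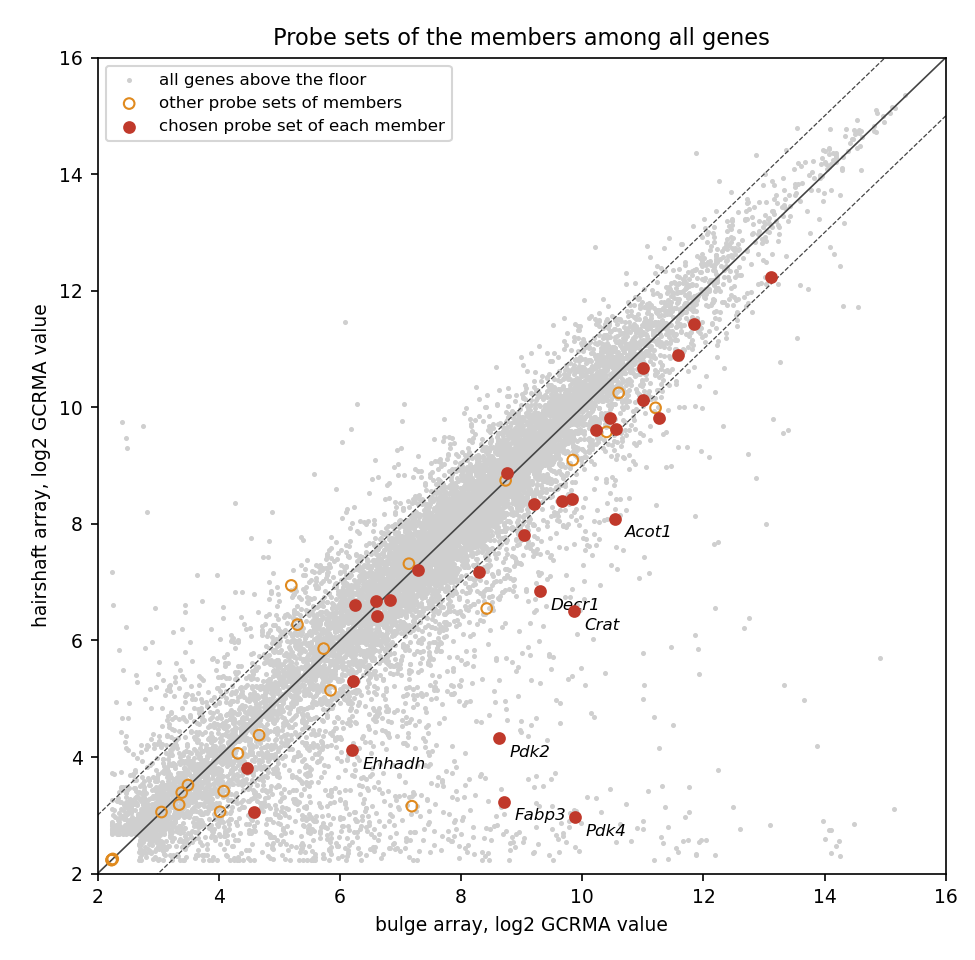
Bulge value (horizontal) against hairshaft value (vertical), both in log2 GCRMA units, for 13329 genes above the floor (grey), the chosen probe set of each member (filled red) and the members' other probe sets (open orange). The solid line marks equality and the dashed lines 2-fold; 13 filled points lie beyond the lower dashed line and none beyond the upper.

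The rest of the pathway was read from lists of 86 other genes, drawn up by function with earlier results of these data known. Of 78 above the floor, 30 (38.5%) were bulge-high, against 11.4% of all genes above the floor. None was hairshaft-high (4.91% of all genes), and the median difference was 0.65. The lists differed, and among 22 other mitochondrial enzymes 3 (13.6%) were bulge-high, near the share of all genes. In uptake and activation, 8 of 13 were bulge-high, led by the carrier Fabp4, the transporter Cd36, the lipoprotein lipase Lpl and the acyl-CoA synthetase Acsl4 at 821-fold, 354-fold, 88.0-fold and 7.78-fold. In lipolysis and ketone metabolism 5 of 8 were, with the monoglyceride lipase Mgll at 22.9-fold, the droplet protein Plin2 at 13.2-fold, the triglyceride lipase Pnpla2 at 3.56-fold and the hormone-sensitive lipase Lipe at 2.98-fold. Of these 86 genes, 5 are also fat cell or brown fat cell markers below.

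Peroxisomal enzymes outside the set included several large differences. Of 13 above the floor, 7 (53.8%) were bulge-high, against 11.4% of all genes above the floor, and the median was 1.38. The thiolase Acaa1b had 8.85 on the bulge array against 2.63 on the hairshaft array (at least 72.1-fold), and the branched-chain oxidases Acox2 and Acox3 were 33.6-fold and 20.9-fold higher. Abcd2, a transporter of very long acyl chains into peroxisomes, was at least 21.3-fold higher, with 7.09 on the bulge array against 2.62 on the hairshaft array.

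Regulators were bulge-high more often than all genes, and those that were included genes that make malonyl-CoA and genes of fat storage. Of 22 above the floor, 7 (31.8%) were bulge-high, against 11.4% of all genes above the floor. The other 15 were under 2-fold apart, and the median was 0.26. Acacb, which makes the malonyl-CoA that inhibits the carnitine shuttle, had 8.71 on the bulge array against 3.02 on the hairshaft array (51.7-fold). Pparg, a regulator of fat storage, was at least 39.0-fold higher, Prkaa2, a catalytic subunit of AMP-activated kinase, 15.6-fold and Lpin1 8.08-fold. Of the regulators that drive mitochondrial genes in general, the coactivator Ppargc1a had 4.75 on the bulge array against 3.23 on the hairshaft array (2.87-fold), and its relative Ppargc1b had a difference of 0.44. Esrra, Nrf1 and Tfam had differences of -0.04, 0.00 and -0.06.

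Other mitochondrial genes placed the spiral enzymes in context. Of 16 genes of the tricarboxylic acid cycle, which burns the acetyl-CoA, 6 (37.5%) were bulge-high, against 11.4% of all genes above the floor. Their median was 0.84, near the 0.88 of the 14 spiral and electron transfer enzymes. Leading them were Sdhb and Sdhc, subunits of succinate dehydrogenase, and Idh3g, of isocitrate dehydrogenase, at 3.20-fold, 2.64-fold and 2.61-fold, with Sdhd at 2.47-fold. Genes of mitochondrial import and outer-membrane pores had 0 of 14 at least 2-fold apart and a median of 0.30, with Vdac3 nearest the limit at 1.99-fold. Of all genes above the floor, 11.4% were bulge-high and 4.91% hairshaft-high, so that 0 of 14 is no result about the list. The difference between these lists was not tested.

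Markers of several other cell types were also higher on the bulge array. All 21 skeletal muscle markers passed the 8-fold limit toward the bulge, led by Acta1, Tnni2 and Myl1, with values of 9.28 to 15.15 on the bulge array against 2.30 to 4.97 on the hairshaft array (median difference 10.27), and 11 of 21 were above the floor in the hairshaft. Of 11 fat cell markers listed, 9 were measured. These 9 ran from 6.82 to 14.92 in the bulge and from 2.37 to 6.62 in the hairshaft, all bulge-high. In the hairshaft 4 of 9 were above the floor. Of 9 sebocyte markers listed, 5 were measured and 4 were above the floor, and these 4 passed the 8-fold limit toward the bulge. Endothelial markers were bulge-high in 10 of 10. Of all genes above the floor, 11.4% were bulge-high and 3.02% passed the 8-fold limit toward the bulge. In bulk tissue, fewer cells of a type and less RNA per cell cannot be told apart. The part of these cell types in the results for Pdk4, Fabp3, Ucp3, Crat and the other members was not tested.

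Slow muscle markers were not above the floor or were under 2-fold apart, and brown fat markers were mixed. Of 8 slow muscle markers, Myh7, Tnnc1, Myl2 and Tnni1 did not exceed the floor on the bulge or the hairshaft array and 0 of the other 4 was 2-fold apart. Of 8 brown fat markers, Ucp1, the defining one, was not above the floor (2.27 on the bulge array against 2.30 on the hairshaft array). Cox8b, Cidea and Cox7a1 passed the 8-fold limit toward the bulge, Dio2 and Zic1 were hairshaft-high, and Ebf2 and Prdm16 even. Of these, Cox8b and Cox7a1 are also muscle genes, and Cidea is also a gene of sebaceous cells.

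Keratinocyte and leukocyte markers were not bulge-high. Of 6 basal keratinocyte markers, 0 were bulge-high and 1, Itga6, was hairshaft-high at 2.15-fold (median -0.15). Of 6 differentiated epidermis markers, 0 were bulge-high and 2 hairshaft-high, Ivl at 2.63-fold and Casp14 at 2.93-fold (median -0.45). Macrophage and leukocyte markers had 0 of 7 at least 2-fold apart (median -0.58). Of all genes above the floor, 11.4% were bulge-high and 4.91% hairshaft-high. In lists of 6 or 7 genes a bulge-high count of 0 is near that share and is no result about them. With Fabp3, Ucp3 and Pdk4, the measured members best known from muscle, left out, 10 of the other 27 members (37.0%) were bulge-high. The share of all genes above the floor was 11.4%, and the median of the 27 was 0.87. At 8-fold, 2 of 27 (7.41%, against 3.02% of all genes), Pdk2 and Crat, were left. The part of muscle cells in the values of these 27 was not tested.

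**Figure D3:**
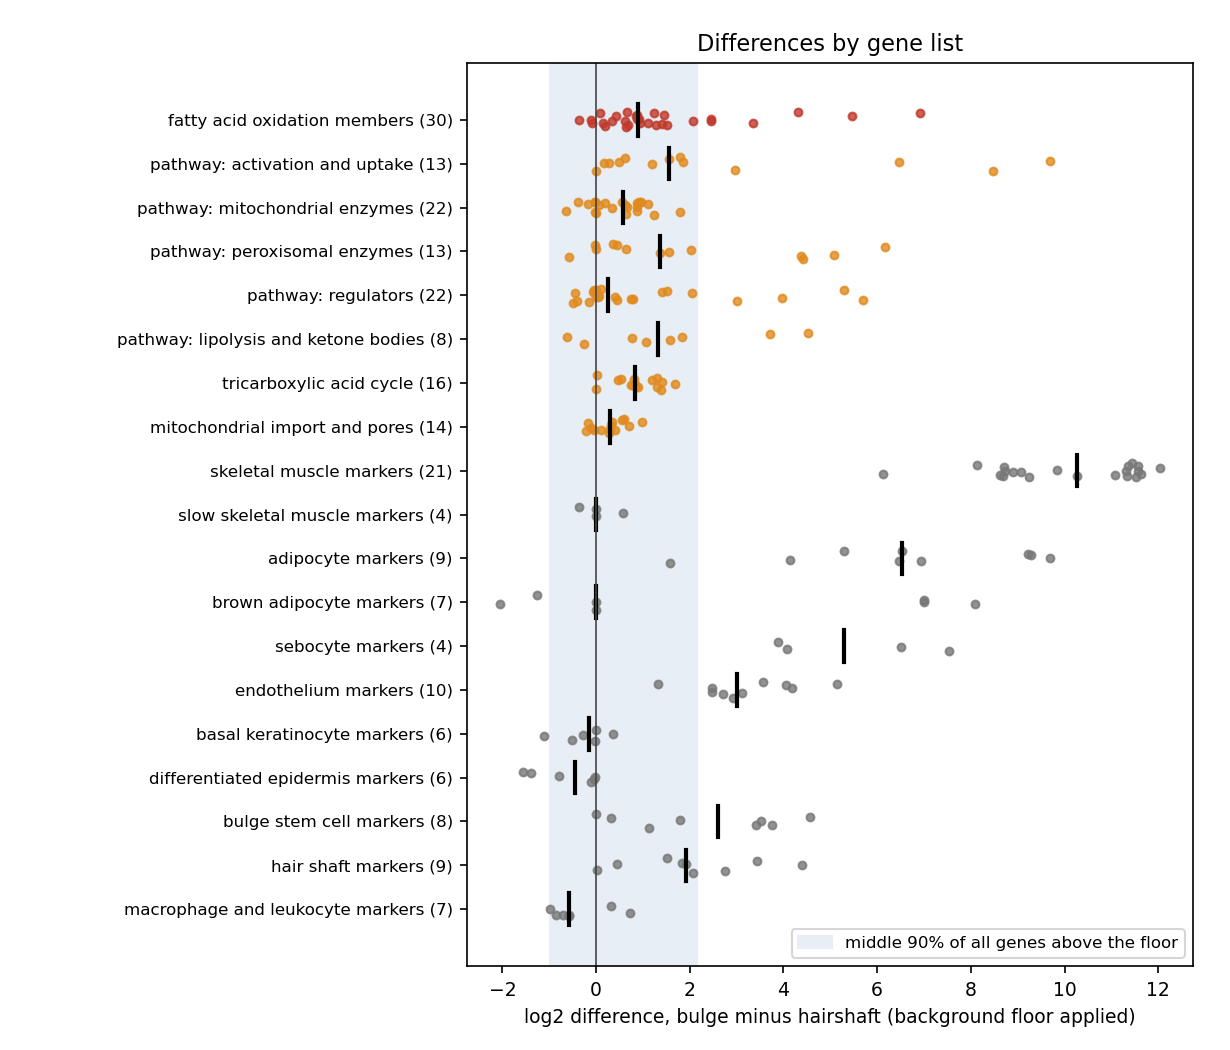
Log2 differences, bulge minus hairshaft, of genes above the floor in each list (points, number of genes in brackets) with the list median (black bar); shading is the middle 90% of all genes above the floor, from -0.99 to 2.15. The members centre on 0.90, near the tricarboxylic acid cycle at 0.84, while skeletal muscle markers centre on 10.27.

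Of the 13 bulge-high members, 10 stayed so under each of 9 processing alternatives, and Cpt2, Acadl and Ucp3 did not. None of the 13 changed sign. Removing the median and setting no floor moved no member's value, so these alternatives add nothing to that count. Over all members, the bulge-high count ran from 11 to 16.

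**Figure D4:**
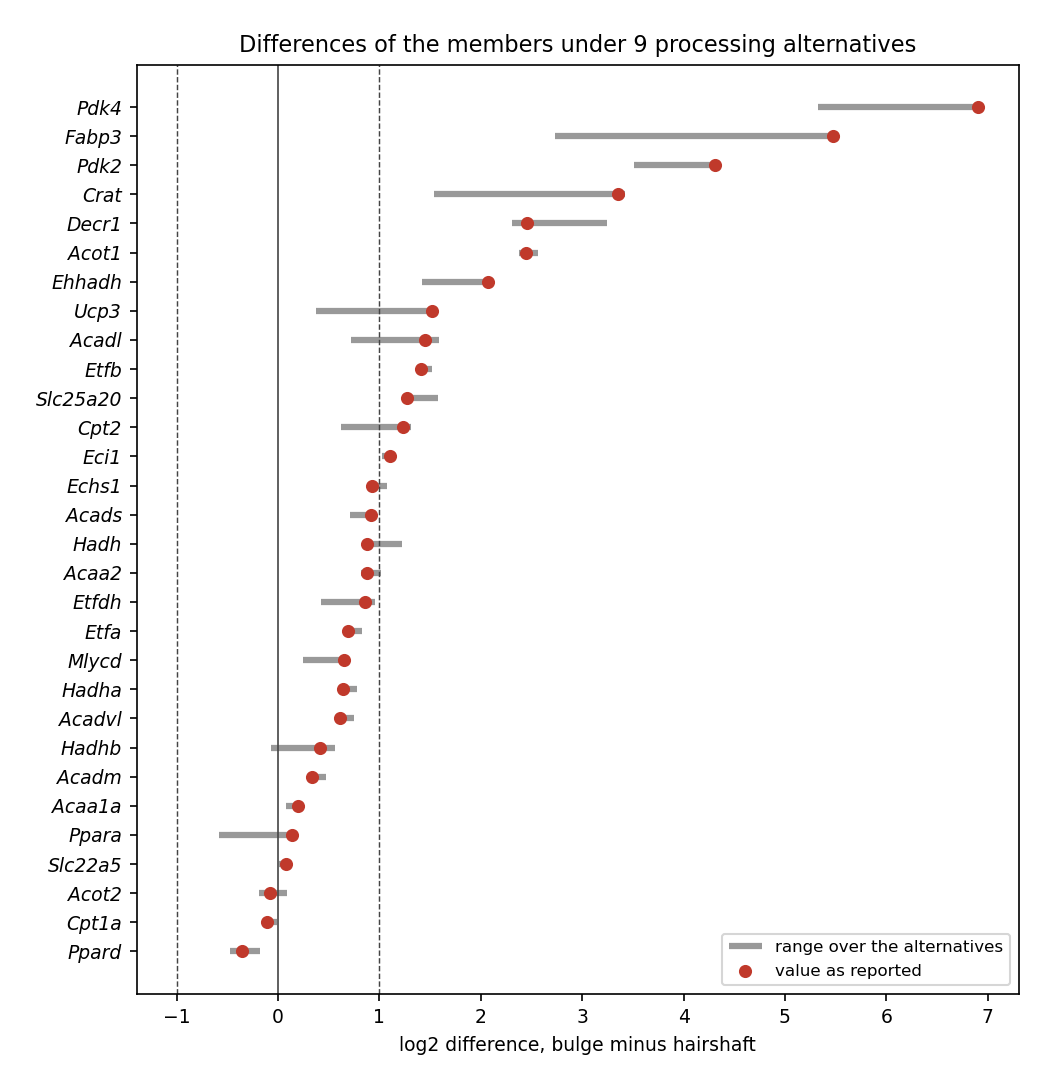
Log2 difference, bulge minus hairshaft, of each member as reported (red points) with its range over 9 processing alternatives (grey bars); dashed lines mark 2-fold. Fabp3, Crat and Pdk4 have the widest bars, and Ucp3, Acadl and Cpt2 are the members whose bars cross back over the 2-fold line.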

How the data were processed

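Total RNA of laser-cut bulge and hairshaft was measured on 1 array each, and groups were taken from the labelled cell type. The authors deposited log2 values per probe set, made with GCRMA per the submitters' processing notes, whose version is not stated there; that the scale is log2 follows from the range of 2.23 to 15.36. Sorted columns differed by at most 0.19, so no scaling was added. A platform annotation named 34958 probe sets with 1 symbol and 932 with several, which were given to no gene, and 9211 had none; 34754 symbols were updated through the Entrez identifier (RefSeq, GRCm38.p6). Each gene took its probe set with the highest mean over both arrays. Values at or below the floor were set to it, and such folds are written "at least". Genes were counted at 2-fold and 8-fold limits, without a test. All members were named, with up to 4 genes from each other list and up to 3 from each marker list by size of difference, at least 2-fold, and others were named after their values were seen. The members and lists were chosen with earlier results of these data known. Counting was run on simulated data with planted differences larger than the 2-fold limit. That run checks the counting and not the values of these arrays. The 9 alternatives covered the floor (99th percentile, median of all probe sets, none), the probe sets (mean, plain ones), an offset of 16, and scaling (loess with span 0.3, median, quantile). Tables were handled in pandas 2.3.3 and numpy 2.4.6 under Python 3.11.15, the loess fit used statsmodels 0.14.6 and figures matplotlib 3.10.9.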

Additional observations from a re-analysis of the deposited data

How the results depend on the processing

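With 1 array per structure, no spread between animals or dissections could be measured, and no replicate could be left out. No paired analysis was possible because each structure had 1 array. Over the 9 alternatives, 11 to 16 members were bulge-high, 0 hairshaft-high, and the members' median was 0.77 to 1.03. The number higher in the bulge by any amount, an alternative count added after seeing the data, was 25 to 27. The 25 came with plain probe sets only, where 28 members were measured. Removing the median, which was 0.00 over all genes, and setting no floor left every member's value as it was. Of the 13 bulge-high members, 10 stayed so under every alternative and Cpt2, Acadl and Ucp3 did not. Without Cpt1b, Fabp3, Ucp3 and Pdk4, the members past the 8-fold limit were 2 in place of 4, since Fabp3 and Pdk4 were themselves among the 4. Of 268 member values under alternatives, 14, in 10 members, moved by over 1.5-fold, all of them with a higher floor, the offset or the mean of probe sets. Bulge-high genes in the rest of the pathway numbered 22 to 31, and hairshaft-high ones 0. The 22 came with plain probe sets only, where 66 of these genes were above the floor. Values near the floor, as for Pdk4 and Fabp3 in the hairshaft, limit how far a fold can be read.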

Other observations

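Enzymes of branched-chain amino acid and propionyl-CoA breakdown, which share the mitochondrial matrix and the acyl-CoA chemistry of fatty acid oxidation, were included in a list of 22 other mitochondrial enzymes. In that list 3 of 22 (13.6%) were bulge-high, near the 11.4% of all genes above the floor, so that this count is no result about the list; 0 were hairshaft-high, and the median difference was 0.58. The 3 were Eci2, a second enoyl-CoA isomerase, with 9.73 on the bulge array against 7.94 on the hairshaft array (3.45-fold), Pccb, a subunit of propionyl-CoA carboxylase, with 8.42 on the bulge array against 7.19 on the hairshaft array (2.35-fold), and Hibch of valine breakdown, with 8.37 on the bulge array against 7.26 on the hairshaft array (2.16-fold). The partner subunit Pcca had a difference of 0.87, and the mutase Mmut at the end of the propionate route had 0.06. Cpt1c, the brain form of the transferase, had the largest hairshaft excess in the list, with 5.58 on the bulge array against 6.22 on the hairshaft array.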
